A study of Mus musculus with 8 samples.

Results

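The 32 genes described here encode the enzymes and regulators of cholesterol and fatty acid synthesis, and they were chosen by gene symbol from the 54532 genes counted in each library. They comprise 18 enzymes of the sterol pathway, 1 sterol transfer protein, 4 regulators of the SREBP system and 9 enzymes of fatty acid synthesis, desaturation and elongation. Their transcripts were measured in 4T1 cells, a metastatic mouse triple-negative breast cancer line, by poly(A)-selected RNA sequencing. The cells stably carried an shRNA plasmid, either a scramble control or one against MCT-1 (shMCT-1), an oncoprotein encoded by Mcts1 that acts in translation. Each kind of cell received anti-IL-6R (clone 15A7, an antibody that blocks the mouse interleukin-6 receptor) at 100 ng/ml or control IgG for 48 h. This gave 4 groups of 2 libraries, each named below by its shRNA and its antibody (for example scramble + IgG). All cells were kept in RPMI-1640 medium with 10% fetal bovine serum, a source of lipids, and with 6 µg/ml puromycin. The labels name 1 scramble and 1 shMCT-1 background, so any other difference between these cell populations cannot be told apart from the knockdown.

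Cells build cholesterol from acetyl-CoA through mevalonate, farnesyl diphosphate and squalene, and they build fatty acids from the same acetyl-CoA through malonyl-CoA. Both routes are controlled by the SREBP transcription factors, which Srebf1 and Srebf2 encode. Scap carries the SREBP precursors out of the endoplasmic reticulum for cleavage when sterols are scarce, and the Insig proteins hold them back when sterols are plentiful. SREBP-1c favors fatty acid genes and SREBP-2 favors sterol genes, and tumor cells commonly keep both routes active.

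SREBP proteins bind sterol regulatory elements close to gene starts and work together with NF-Y, which binds CCAAT, and with Sp1, which binds GC boxes such as GGGCGG. The 250 bases before each annotated start were searched on both strands in the RefSeq promoter table (GRCm38.p6), which held 31 windows for 25 of the 32 genes. CCAAT was found in windows of 19 of these 25 genes, against 33.8% of all 32851 windows in the table and 41.2% of the tested genes with a window. Among the sterol enzymes, 14 of 15 genes with a window held it, and among the fatty acid enzymes 2 of 6. Hmgcs1 alone held the sterol element TCACCCCAC, against 0.64% of the tested genes with a window and 0.496% of all windows. The looser form TCACNCCAC, which includes it, was likewise found in Hmgcs1 only, against 1.2% of those genes and 1.05% of all windows. Other forms of the sterol element were not searched. CACGTG, the E-box, was found in Hsd17b7, Sc5d, Dhcr7, Insig1 and Scap, 5 of the 25 genes, against 10.1% of the tested genes with a window and 6.02% of all windows. GGGCGG was found in 21 of the 25 genes, against 65.9% of the tested genes with a window and 32.7% of all windows. The following windows of 30 bases are shown because they carry these motifs in genes that rose (Sc5d, Srebf1, Fasn), fell (Hmgcs1) or were not called (Lss) in shMCT-1 cells. Each is read 5′ to 3′ on the strand of its gene, and the capitals mark the sterol element or CCAAT, written ATTGG where it lies on the opposite strand. The Fasn window also holds an overlapping CCAAT on the opposite strand, which is not marked.
Hmgcs1, sterol element, chr13:119690204-119690233, plus strand: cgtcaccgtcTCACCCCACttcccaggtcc
Hmgcs1, CCAAT, chr13:119690294-119690323, plus strand: tccccgcctctcATTGGctgaaagcggatc
Sc5d, CCAAT, chr9:42264307-42264336, minus strand: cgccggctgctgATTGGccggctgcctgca
Lss, CCAAT, chr10:76531531-76531560, plus strand: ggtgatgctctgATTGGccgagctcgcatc
Srebf1, CCAAT, chr11:60210484-60210513, minus strand: gcgcggctgctgATTGGccatgtgcgctca
Fasn, CCAAT, chr11:120824592-120824621, minus strand: cggcctcggtgtCCAATtggtttcgatgtg

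A match is only a stretch of letters, and these data did not measure binding. In shMCT-1 vs. scramble over both treatments, 9 of the 19 genes with CCAAT were called higher, 4 lower and 6 not called, while 5 of the 6 genes with a window but no CCAAT were called higher and 1 lower. Of all tested genes 69.0% were called in this comparison, 35.0% higher and 34.0% lower, and nothing about the motif is read from these small counts. Fdps, Fdft1, Sqle, Stard4, Scd1, Scd2 and Fads1 were not in the promoter table.

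Library totals ranged from 19839299 to 33063570 counts, and every shMCT-1 library (at most 23448587) was smaller than every scramble library (at least 24100084). Mcts1, the targeted gene, lay at 11.8 to 15.4 CPM (counts scaled to the total of the library in the usual way) in scramble and at 4.92 to 6.70 CPM in shMCT-1, and it fell 2.15-fold over both treatments (log2 fold change -1.10 ± 0.12, SE, adjusted p = 1.13e-05). All 32 synthesis genes passed the filter on low counts, and their lowest count in any library was 432. Replicate 2 of scramble + IgG stood apart, since it was the lowest or the highest of the 4 scramble libraries for 31 of the 32 genes (96.9%), against 75.3% of all tested genes. The other 7 libraries held such a place within their background for 8 to 19 of the 32 genes. The 2 scramble + IgG libraries differed by a median of 0.14 (log2, without sign) over the 32 genes, against 0.046 to 0.081 in the other groups. Counts of calls are therefore given with and without scramble + IgG replicate 2. The 5 markers of epithelial tumor cells were detected in every library, and their summed level was 2325 to 2477 CPM in scramble and 3073 to 3331 CPM in shMCT-1. Without overlap between the backgrounds, Krt8 was at 1031 to 1116 CPM in scramble and 1257 to 1429 CPM in shMCT-1, Krt18 at 622 to 695 CPM and 873 to 959 CPM, and Krt7 at 346 to 365 CPM and 589.9 to 649 CPM. Epcam was at 3.75 to 4.93 CPM and 49.4 to 54.5 CPM, and Cdh1, which overlapped, at 290.6 to 315 CPM and 245 to 305 CPM. The summed level of the 4 adipocyte markers (Adipoq, Plin1, Cidec and Lep) reached at most 0.0907 CPM, and Cidec was at 0 in every library. The summed level of the 5 leukocyte markers was 2.91 to 3.74 CPM in scramble and 5.60 to 7.71 CPM in shMCT-1. Most of it came from Cd68, while Adgre1 and Cd3e were at 0 and Ptprc was at most 0.137 CPM. The 3 endothelial markers summed to at most 0.332 CPM in scramble and to 0.554 to 1.82 CPM in shMCT-1, and the 3 fibroblast markers to 15.2 to 17.2 CPM and 12.6 to 16.0 CPM. The part of these markers in the results was not tested.

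Levels between genes are compared as CPM per kilobase of exon. In scramble + IgG, Scd2 had the highest level of the 32 genes (164 CPM per kilobase), followed by Idi1 (105) and Fasn (92.3), and Acss2 had the lowest (2.80). In shMCT-1 + IgG, Scd2 (207) and Fasn (112) led and Fdps (96.3) followed, moving from place 6 (60.2) to place 3, while Idi1 moved from place 2 to place 5 (74.8). Srebf1 moved from place 28 to 20, Fads1 from 23 to 17 and Stard4 from 22 to 28. In bulk RNA such levels cannot separate the number of cells that express a gene from the RNA per cell.

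The main comparison asked which of the 32 genes differed between shMCT-1 and scramble cells across both treatments, with 4 libraries on each side. The regulator Srebf1 was higher in shMCT-1, and of the 9 fatty acid enzymes 7 were called higher and 2 lower. Of the 18 sterol enzymes 9 were called higher, 2 lower and 7 not called. In all, 19 genes were higher and 6 were lower at an adjusted p-value under 0.05, or 25 of 32 (78.1%). Among all 12704 tested genes 69.0% were called, 35.0% higher and 34.0% lower, so that the share of synthesis genes called was near the background. Their median log2 fold change was 0.22, against 0.01 over all tested genes. Their changes were small, since 4 of 32 (12.5%) reached an absolute log2 fold change of 0.58 (1.49-fold), against 34.2% of all tested genes, and none of the 32 reached 1. The levels of the 4 shMCT-1 and the 4 scramble libraries did not overlap for 21 of the 32 genes, against 64.1% of all tested genes. Without scramble + IgG replicate 2, 24 of the 32 genes were called.

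**Figure D1:**
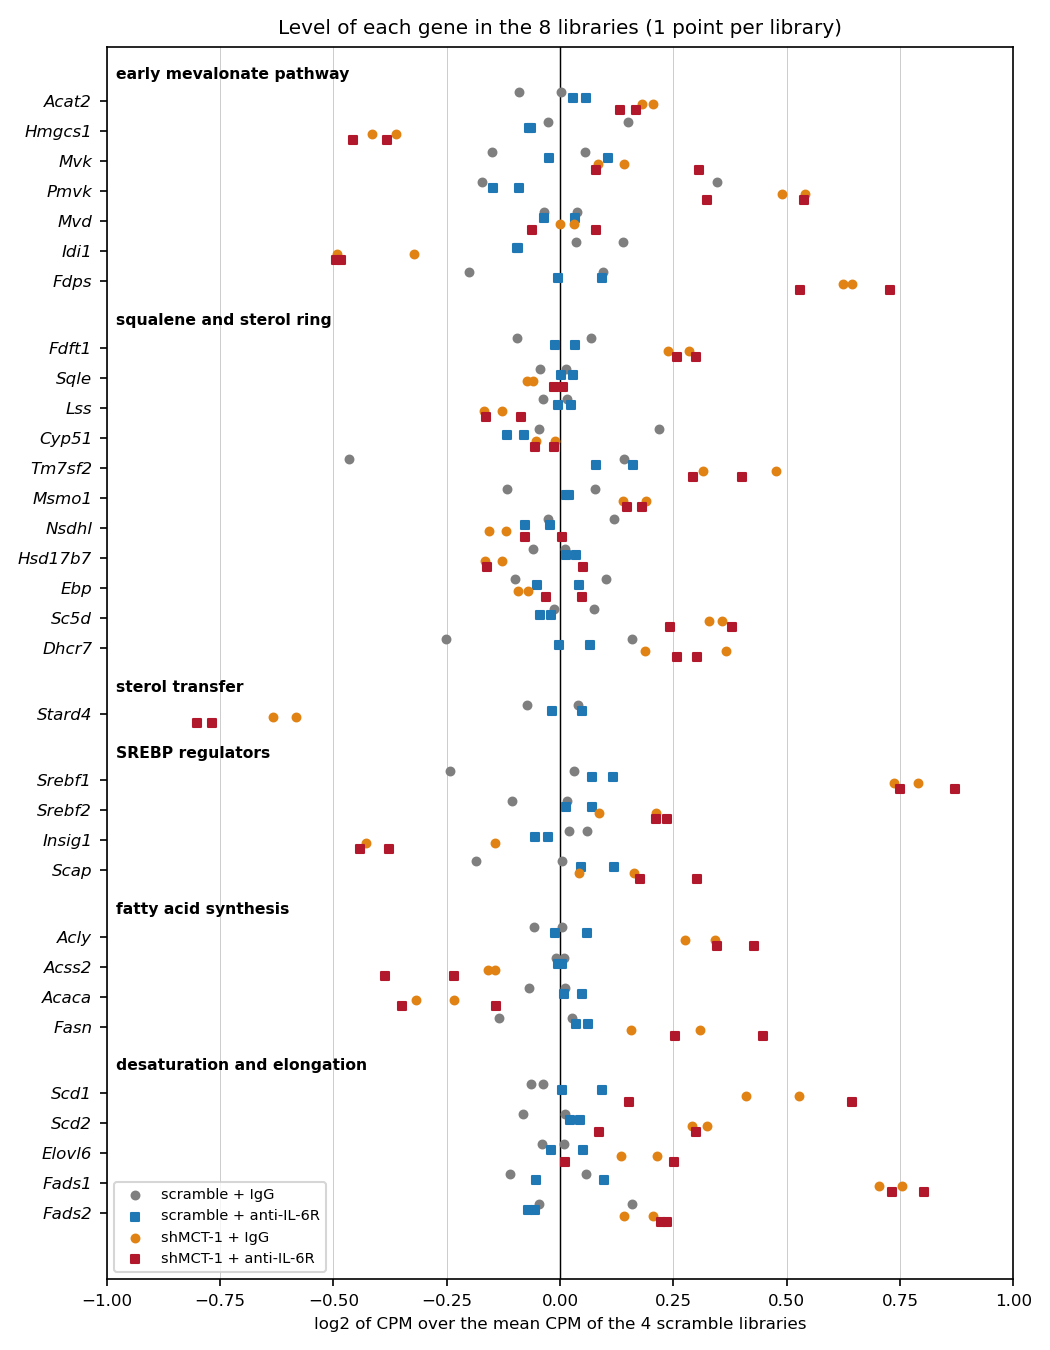
Level of each of the 32 genes in every library, as the log2 of its CPM over the mean CPM of the 4 scramble libraries (horizontal axis), with genes grouped by role. Each point is 1 library, circles are IgG and squares anti-IL-6R; all 4 shMCT-1 points of Srebf1, Fads1 and Fdps lie to the right of their scramble points and those of Stard4 to the left.

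Of the 7 enzymes of the early mevalonate pathway, 4 rose, 2 fell and 1 was not called (85.7% called, beside 69.0% of all tested genes). Fdps, which makes farnesyl diphosphate, the branch point to sterols and to prenylated proteins, rose most. It lies at chr3:89093588-89101959 (GRCm38). Its level was 279 and 227 CPM in scramble + IgG, 278 and 260.2 CPM in scramble + anti-IL-6R, 403 and 408 CPM in shMCT-1 + IgG, and 433 and 377 CPM in shMCT-1 + anti-IL-6R. All 4 shMCT-1 libraries were above all 4 scramble libraries. This was a 1.61-fold rise (log2 fold change 0.68 ± 0.074, SE, adjusted p = 1.31e-05). Pmvk, which phosphorylates phosphomevalonate, rose 1.44-fold (log2 fold change 0.53 ± 0.11, adjusted p = 0.00117), although its level in scramble + IgG replicate 2 (57.8 CPM) exceeded that of 1 shMCT-1 library (56.9 CPM). Acat2, which joins acetyl-CoA units, and Mvk, mevalonate kinase, rose by log2 values of 0.22 ± 0.052 and 0.21 ± 0.071, with overlapping libraries for Mvk. Mvd, which decarboxylates mevalonate diphosphate, was not called (0.06 ± 0.059, adjusted p = 0.363).

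Hmgcs1 and Idi1 moved in the opposite direction. Hmgcs1, the synthase that forms HMG-CoA, fell from 286 to 333 CPM in the scramble libraries to 219 to 234 CPM in shMCT-1 (log2 fold change -0.35 ± 0.061, adjusted p = 0.000404). Idi1, which isomerizes isopentenyl diphosphate to the substrate that Fdps uses, fell from 325 to 383 CPM to 247 to 278 CPM (log2 fold change -0.39 ± 0.061, adjusted p = 0.00018). Neither gene had overlapping libraries. Both lie on chromosome 13, where the median log2 fold change of the 527 tested genes was -0.42, so that both differed little from the other genes of that chromosome (0.06 and 0.02 above its median). The part of this chromosome-wide shift in their fall was not tested. The ratio of Fdps to Idi1 counts, chosen after the values were seen, was 0.594 to 0.857 in scramble and 1.47 to 1.74 in shMCT-1. The summed level of the 7 early genes was 1156 to 1230 CPM in scramble and 1168 to 1247 CPM in shMCT-1, 2 ranges that overlapped.

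Of the 11 enzymes that convert farnesyl diphosphate into squalene and then into the sterol ring and its products, 5 rose, none fell and 6 were not called. This was 45.5% called, beside 69.0% of all tested genes. Fdft1, squalene synthase, which takes the first step committed to sterols, rose 1.25-fold (0.32 ± 0.053, adjusted p = 0.000292). Sc5d, a desaturase of the sterol ring, rose 1.3-fold from 58.5 to 63.5 CPM to 71.3 to 78.5 CPM (0.38 ± 0.057, adjusted p = 0.000154). Tm7sf2 and Dhcr7, which both reduce a double bond of the ring, rose by log2 values of 0.43 ± 0.11 and 0.33 ± 0.082, and Msmo1, which oxidizes a methyl group of the ring, by 0.21 ± 0.054. These 5 genes had no overlapping libraries, and scramble + IgG replicate 2 was the lowest library for Tm7sf2 (22.3 CPM, against 32.5 to 34.5 CPM in the other 3 scramble libraries) and for Dhcr7 (34.0 CPM, against 40.4 to 45.2 CPM).

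The 6 enzymes that were not called stood between these steps. They were Sqle, the epoxidase that acts on squalene (0.01 ± 0.049), Lss, which closes the ring to lanosterol (-0.09 ± 0.049), Cyp51, which removes a methyl group (0.02 ± 0.073), Nsdhl (-0.04 ± 0.067) and Hsd17b7 (-0.05 ± 0.06), which act together in removing further methyl groups, and Ebp, an isomerase (0.01 ± 0.063). The standard errors of these 6 log2 fold changes were of the size of those of the called genes, and a change of their size cannot be told from none at this precision. For Lss the shMCT-1 libraries (113 to 119 CPM) were all below the scramble libraries (123 to 129 CPM) although the test did not call it (adjusted p = 0.136). The summed level of all 18 sterol enzymes was 2433 to 2531 CPM in scramble and 2535 to 2589 CPM in shMCT-1.

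Stard4, the only sterol transfer protein among the 32 genes, moves cholesterol between membranes and is itself a sterol-regulated gene. It had the largest fall of the 32 genes, and it is given by library because of that, which was seen in its values. Its level was 82.3 and 76.2 CPM in scramble + IgG, 82.9 and 79.1 CPM in scramble + anti-IL-6R, 51.6 and 53.5 CPM in shMCT-1 + IgG, and 47.1 and 46.0 CPM in shMCT-1 + anti-IL-6R. Every shMCT-1 library was below every scramble library, a 1.57-fold fall (log2 fold change -0.65 ± 0.061, adjusted p = 5.36e-06). The median log2 fold change of its chromosome was -0.06.

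All 4 regulators of the SREBP system were called, 3 higher and 1 lower, beside 69.0% of all tested genes. Srebf1 (chr11:60199089-60222581, GRCm38) had the largest log2 fold change of the 32 genes. Its level was 67.6 and 56.0 CPM in scramble + IgG, 71.8 and 69.6 CPM in scramble + anti-IL-6R, 114 and 110.5 CPM in shMCT-1 + IgG, and 121 and 111 CPM in shMCT-1 + anti-IL-6R. The backgrounds did not overlap, and the rise was 1.79-fold (0.84 ± 0.068, adjusted p = 1.9e-06), beside a median of 0.15 over the 1001 tested genes of chromosome 11. Counts of Srebf1 cover its transcripts together, so SREBP-1a and SREBP-1c cannot be told apart.

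Srebf2 lay at a higher level and changed less. It was at 393 and 361 CPM in scramble + IgG, 408 and 393 CPM in scramble + anti-IL-6R, 450.4 and 413 CPM in shMCT-1 + IgG, and 450.3 and 458 CPM in shMCT-1 + anti-IL-6R. The 4 shMCT-1 libraries were above the 4 scramble libraries, but by little (0.24 ± 0.054, adjusted p = 0.00256), while the median of the 516 tested genes of its chromosome, 15, was 0.17. The ratio of Srebf1 to Srebf2 counts was 0.155 to 0.177 in the scramble libraries and 0.243 to 0.269 in the shMCT-1 libraries.

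Insig1, which retains the SREBP precursors and is a target of SREBPs, fell. It was at 155 and 151 CPM in scramble + IgG, 146 and 143 CPM in scramble + anti-IL-6R, 111 and 135 CPM in shMCT-1 + IgG, and 109.7 and 115 CPM in shMCT-1 + anti-IL-6R. All shMCT-1 libraries were lower, although replicate 2 of shMCT-1 + IgG lay nearer to the scramble libraries than the other 3 did, and the fall was 1.23-fold (-0.29 ± 0.065, adjusted p = 0.00205). Its relative Insig2, which is not among the 32 genes, rose (0.32 ± 0.069, adjusted p = 0.00178), beside a median of 0.21 for its chromosome, 1, and the ratio of Insig1 to Insig2 counts, chosen after the values were seen, went from 6.91 to 7.83 in scramble to 4.27 to 5.26 in shMCT-1.

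Scap, the escort of the SREBP precursors, was at 151 and 133 CPM in scramble + IgG, 164 and 156 CPM in scramble + anti-IL-6R, 169 and 155 CPM in shMCT-1 + IgG, and 186 and 170.4 CPM in shMCT-1 + anti-IL-6R. The backgrounds overlapped, and the test called a rise of 1.17-fold (0.22 ± 0.061, adjusted p = 0.00696).

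**Figure D2:**
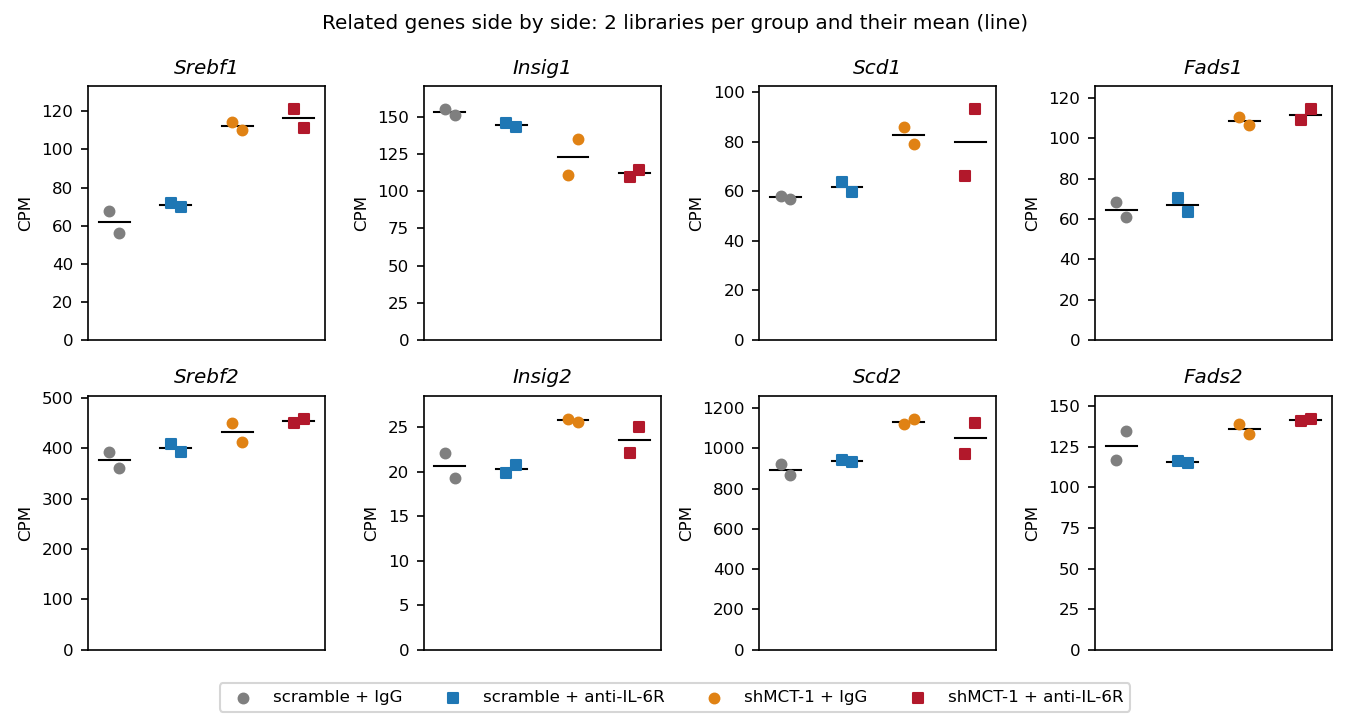
CPM (vertical axes, starting at 0) of 4 pairs of related genes in the 8 libraries, with a line at the mean of each group of 2. Srebf1 and Fads1 stand higher in all shMCT-1 libraries by a larger factor than Srebf2 and Fads2 do, and Insig1 is lower while Insig2 is higher.

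All 9 enzymes of fatty acid metabolism were called, 7 higher and 2 lower, beside 69.0% of all tested genes (35.0% higher and 34.0% lower). Their median log2 fold change was 0.30, against 0.01 over all tested genes. The summed level of these 9 enzymes was 2765 to 3022 CPM in scramble and 3300 to 3746 CPM in shMCT-1. Acly, which releases acetyl-CoA from citrate, rose 1.32-fold from 348 to 377 CPM to 438 to 486 CPM (0.40 ± 0.052, adjusted p = 5.57e-05). Fasn, fatty acid synthase, rose 1.27-fold from 954 to 1093 CPM to 1166 to 1428 CPM (0.34 ± 0.065, adjusted p = 7e-04). In contrast, Acaca, which makes the malonyl-CoA that Fasn uses, fell from 210.0 to 228 CPM to 173 to 199.9 CPM (-0.21 ± 0.058, adjusted p = 0.00772). None of these 3 genes had overlapping libraries. All of them lie on chromosome 11 with Srebf1, so that Acaca went against the median of its chromosome (0.15).

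Acss2, which makes acetyl-CoA from acetate, was the lowest of the 32 genes per length and was at 28.3 to 28.6 CPM in scramble and 21.8 to 25.8 CPM in shMCT-1. Its fall was called (-0.18 ± 0.063, adjusted p = 0.0245), but it lies on chromosome 2, where the median of 1001 tested genes was -0.37, so that it was 0.19 above that median. Leaving out either scramble + anti-IL-6R library or shMCT-1 + anti-IL-6R replicate 1 ended this call (adjusted p = 0.0821, 0.0687 and 0.0579), as did testing without a filter on low counts (adjusted p = 0.128). The call of Mvk, described above, ended without replicate 2 of scramble + IgG, of scramble + anti-IL-6R or of shMCT-1 + IgG, and without shMCT-1 + anti-IL-6R replicate 1 (adjusted p = 0.0563, 0.0948, 0.0602 and 0.067).

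Of the 4 desaturases and the elongase, all 5 were called higher, beside 35.0% of all tested genes. Scd1 and Scd2 insert the first double bond into saturated fatty acids. Scd1 was at 58.2 and 57.1 CPM in scramble + IgG, 63.7 and 59.9 CPM in scramble + anti-IL-6R, 86.0 and 79.3 CPM in shMCT-1 + IgG, and 66.3 and 93.3 CPM in shMCT-1 + anti-IL-6R. The 2 shMCT-1 + anti-IL-6R libraries differed widely, yet both exceeded every scramble library, and the rise was 1.41-fold (0.49 ± 0.093, adjusted p = 0.00072). Scd2, the main form in these cells, was at 923 and 866 CPM in scramble + IgG, 944 and 929.8 CPM in scramble + anti-IL-6R, 1120.3 and 1145 CPM in shMCT-1 + IgG, and 972 and 1127 CPM in shMCT-1 + anti-IL-6R. It too did not overlap between backgrounds and rose 1.23-fold (0.30 ± 0.064, adjusted p = 0.00159). The ratio of Scd1 to Scd2 counts was 0.063 to 0.0675 in scramble and 0.0682 to 0.0827 in shMCT-1. The near relatives Scd3 and Scd4 were at most 2.03 and 1.85 CPM.

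Fads1 and Fads2 desaturate the polyunsaturated precursors of arachidonic acid and its kin, and they are neighbors at chr19:10182888-10196877 and chr19:10062765-10101746 (GRCm38). Fads1 was at 68.3 and 60.7 CPM in scramble + IgG, 70.1 and 63.2 CPM in scramble + anti-IL-6R, 111 and 107 CPM in shMCT-1 + IgG, and 109 and 114 CPM in shMCT-1 + anti-IL-6R. Its backgrounds were far apart, and it rose 1.74-fold with the smallest adjusted p-value of the 32 genes (0.80 ± 0.059, adjusted p = 1.01e-06). Fads2 was at 117 and 135 CPM in scramble + IgG, 116 and 115 CPM in scramble + anti-IL-6R, 139 and 133 CPM in shMCT-1 + IgG, and 141 and 142 CPM in shMCT-1 + anti-IL-6R. Scramble + IgG replicate 2 (135 CPM) overlapped the shMCT-1 libraries, and the called rise was 1.19-fold (0.25 ± 0.067, adjusted p = 0.00638). The ratio of Fads1 to Fads2 counts was 0.451 to 0.604 in scramble and 0.774 to 0.805 in shMCT-1. Elovl6, which elongates the product of Fasn, rose 1.15-fold with overlapping libraries (0.20 ± 0.061, adjusted p = 0.0117).

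**Figure D3:**
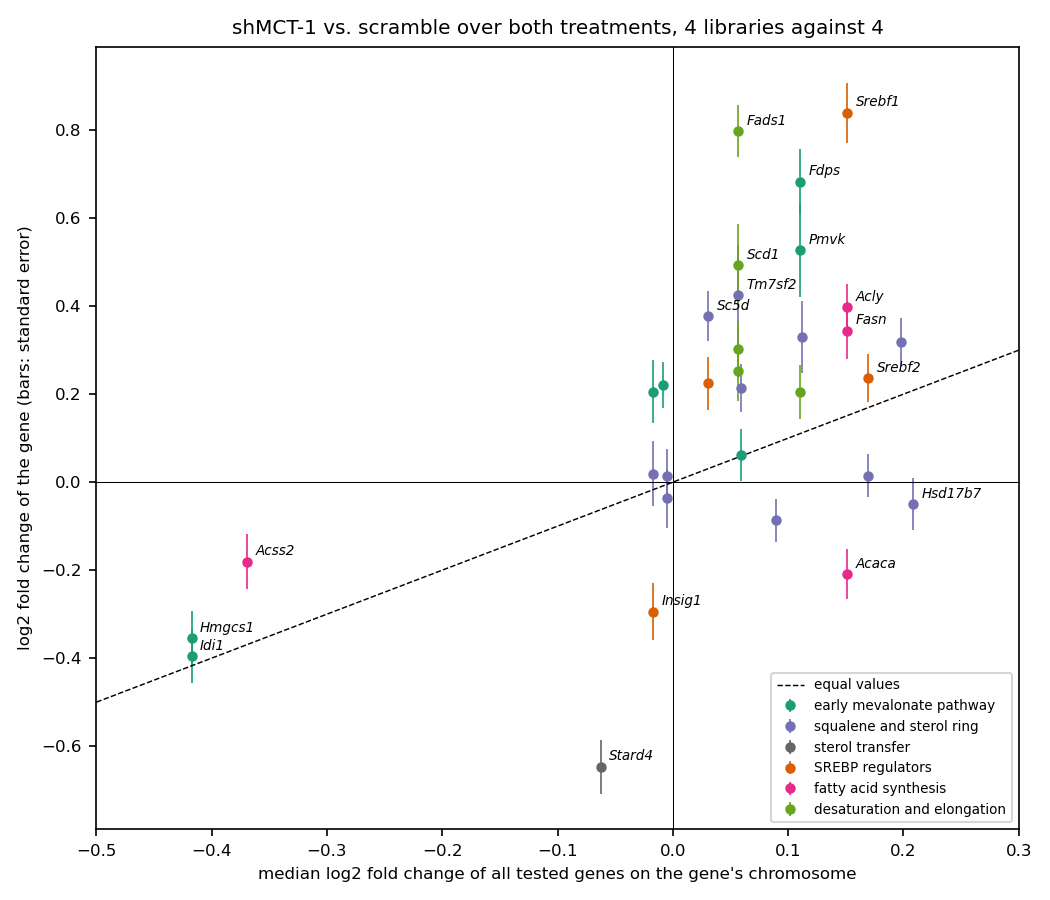
Log2 fold change of each of the 32 genes in shMCT-1 vs. scramble over both treatments (vertical axis, bars are SE) against the median log2 fold change of all tested genes on its chromosome (horizontal axis), colored by role. Hmgcs1 and Idi1 lie near the dashed line of equal values at a chromosome median of -0.42, whereas Srebf1, Fads1 and Fdps lie well above it and Stard4 and Acaca well below.

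Median log2 fold changes differed between chromosomes, and 22 of the 25 called genes had the sign of the median of their chromosome. The same share over all called genes was not computed, so nothing is read from this count. Hmgcs1, Idi1 and Acss2 changed sign when the chromosome median was subtracted, and the median of the 32 genes was then 0.17. Fads1 (0.74), Fdps (0.57), Srebf1 (0.69) and Stard4 (-0.58) kept most of their size.

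The same comparison was made within each treatment, from separate libraries with a shared estimate of the spread. Within IgG, 19 of the 32 genes were called (59.4%), 15 higher and 4 lower, against 54.4% of all tested genes (28.3% higher and 26.2% lower). Within anti-IL-6R, 16 were called (50.0%), 11 higher and 5 lower, against 54.3% of all tested genes (26.9% higher and 27.3% lower). Both shares were near the background. The calls coincided for 14 genes, of which 10 were higher in both (Pmvk, Fdps, Fdft1, Sc5d, Srebf1, Srebf2, Acly, Fasn, Scd1 and Fads1) and 4 lower in both (Hmgcs1, Idi1, Stard4 and Insig1). The share of all tested genes called the same way in both treatments was not computed, so nothing is read from this count. Acat2, Tm7sf2, Msmo1, Dhcr7 and Scd2 were called within IgG only and Acss2 and Fads2 within anti-IL-6R only, but no gene differed between the treatments by the test of the interaction. With 2 libraries on each side these counts depended on single libraries. Without scramble + IgG replicate 2, they were 15 within IgG and 20 within anti-IL-6R. The count within IgG dropped to 10 without shMCT-1 + IgG replicate 1, and that within anti-IL-6R to 8 or 7 without scramble + anti-IL-6R replicate 1 or 2.

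Fdps, Srebf1 and Fads1 rose by a log2 fold change of at least 0.58 in both treatments. Srebf1 rose by 0.91 ± 0.1 (adjusted p = 8.95e-05) within IgG and by 0.77 ± 0.1 (adjusted p = 0.000202) within anti-IL-6R. Fads1 rose by 0.80 ± 0.092 (adjusted p = 0.000111) and 0.80 ± 0.091 (adjusted p = 0.000101), and Fdps by 0.72 ± 0.11 (adjusted p = 0.000518) and 0.64 ± 0.11 (adjusted p = 0.000961). Stard4 changed by -0.55 ± 0.083 (adjusted p = 0.000488) and -0.74 ± 0.083 (adjusted p = 9.32e-05). These 4 genes, Sc5d and Acly were called within both treatments whichever of the 8 libraries was left out.

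**Figure D4:**
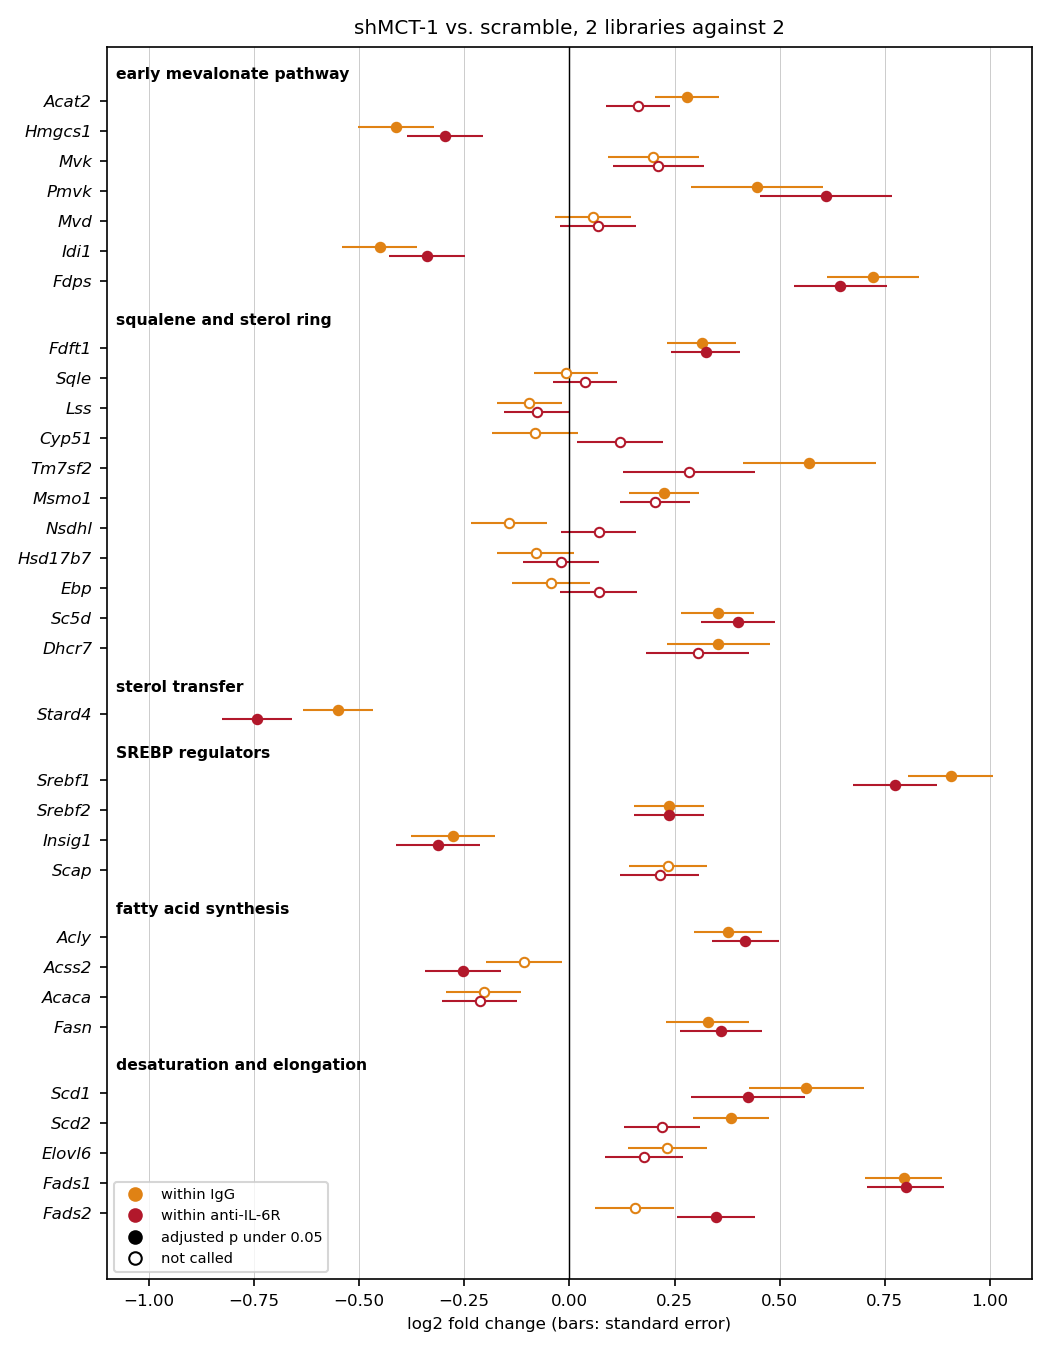
Log2 fold change of shMCT-1 vs. scramble (horizontal axis, bars are SE) for each of the 32 genes, within IgG (orange) and within anti-IL-6R (red), 2 libraries against 2. Filled points passed an adjusted p-value of 0.05; the values of the 2 treatments lie close together for most genes.

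The second question was whether anti-IL-6R changed these genes. In scramble cells none of the 32 genes and 0.0% of all tested genes were called, and in shMCT-1 cells again none and 0.0%. The log2 fold changes of the 32 genes ranged from -0.24 to 0.24 with a median of 0.02 in scramble, and from -0.17 to 0.14 with a median of 0.01 in shMCT-1, with standard errors of 0.075 to 0.16. In scramble the extremes were Pmvk (-0.24 ± 0.16) and Tm7sf2 (0.24 ± 0.16), 2 genes for which scramble + IgG replicate 2 lay far from the other scramble libraries. In shMCT-1 they were Stard4 (-0.17 ± 0.084) and Scap (0.14 ± 0.094). At an unadjusted p-value under 0.05, edgeR found none of the 32 genes in either background, beside 166 and 505 of all tested genes. DESeq2 and the edgeR exact test called none of the 32 genes at an adjusted p-value under 0.05.

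For the difference between these responses (the interaction), edgeR and DESeq2 called none of the 32 genes, none had an unadjusted p-value under 0.05, and 0.0% of all tested genes were called by edgeR. The values ranged from -0.29 ± 0.22 (Tm7sf2) to 0.21 ± 0.13 (Nsdhl). Over both backgrounds, with 4 libraries on each side, edgeR and DESeq2 again called none of the 32 genes, and edgeR called 0.0% of all tested genes. Here 2 of the 32 genes passed an unadjusted threshold of 0.05 in edgeR, beside 355 of the 12704 tested genes. They were Idi1 (-0.14 ± 0.061) and Scap (0.15 ± 0.061), named after their values were seen, and both had an adjusted p-value of 0.995. The size of the largest change within a background, 0.24, was below that of Srebf1 between backgrounds (0.84). Changes larger than their standard errors, such as those of Idi1 and Scap, went uncalled. The smallest change that these libraries could detect was not determined.

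**Figure D5:**
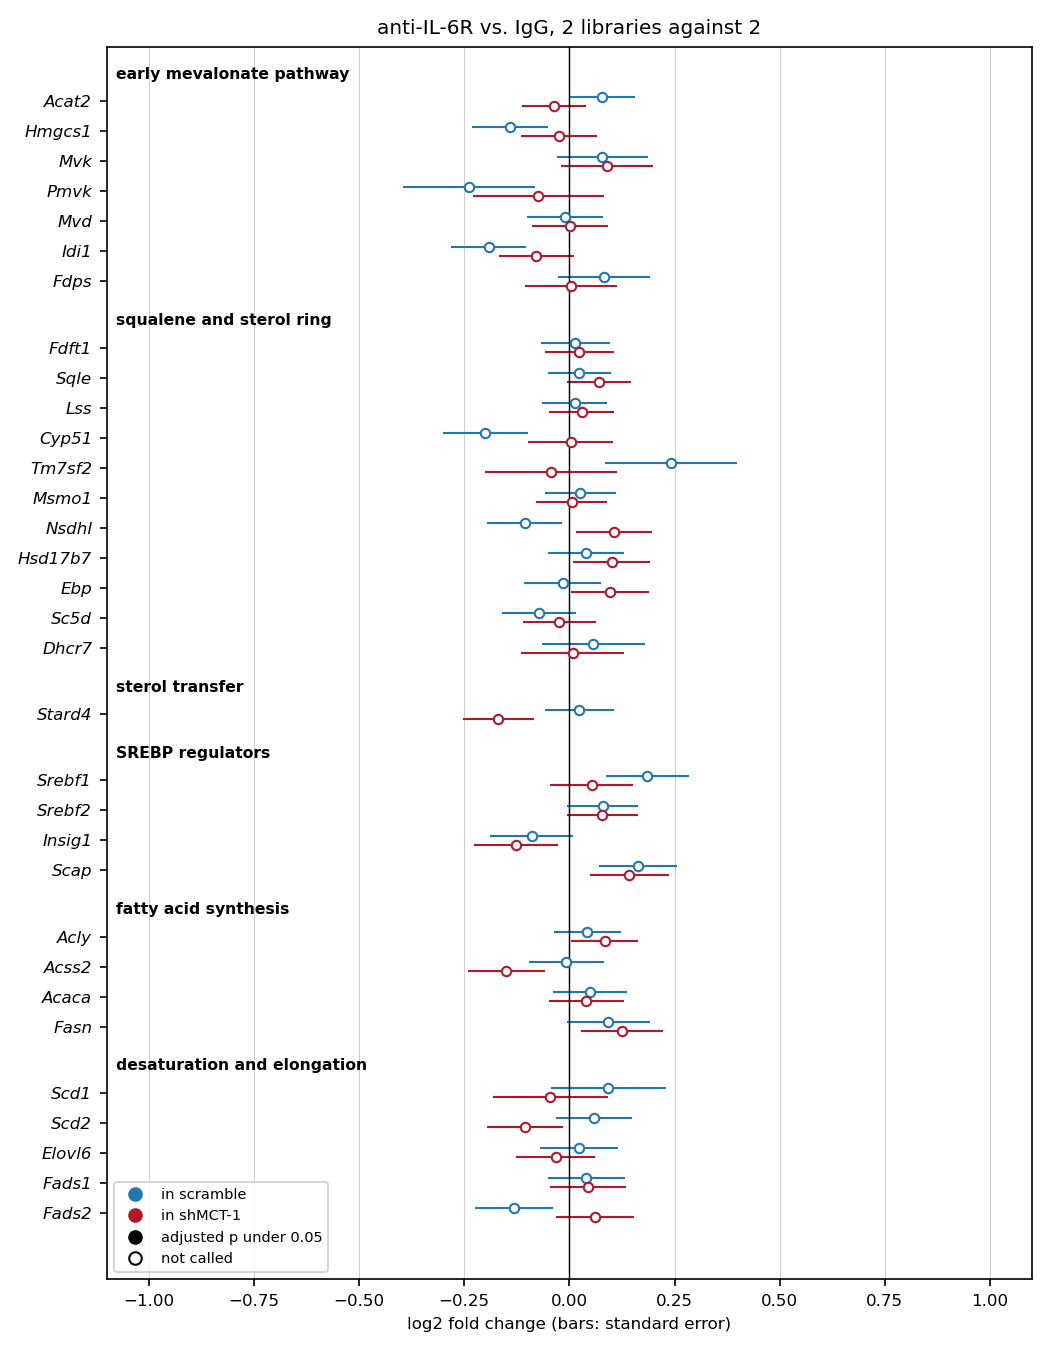
Log2 fold change of anti-IL-6R vs. IgG (horizontal axis, bars are SE) for each of the 32 genes in scramble (blue) and shMCT-1 (red), 2 libraries against 2. All points are open because none passed an adjusted p-value of 0.05, and all lie between -0.24 and 0.24.

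Further genes of lipid metabolism were compared between shMCT-1 and scramble over both treatments, from lists of related functions. Of 8 genes of SREBP processing and sterol-regulated degradation, 2 rose and 4 fell. Insig2 (above) was among those that were higher. Mbtps2, a protease that cleaves SREBPs (-0.31 ± 0.07, adjusted p = 0.00216), and Erlin1 (-0.27 ± 0.057, adjusted p = 0.00149) were lower. Of 11 tested genes of cholesterol transport and the liver X receptor (LXR) pathway, out of 13 listed, 5 rose and 4 fell. Nr1h3, which encodes LXR alpha, a sterol-sensing receptor known to drive Srebf1, fell more than any of the 32 synthesis genes. Its level was 10.8 and 10.9 CPM in scramble + IgG, 12.0 and 11.2 CPM in scramble + anti-IL-6R, 3.84 and 3.54 CPM in shMCT-1 + IgG, and 3.83 and 3.19 CPM in shMCT-1 + anti-IL-6R. The backgrounds were far apart (-1.59 ± 0.11, adjusted p = 4.6e-07, with a median of -0.37 for its chromosome, 2). Mylip, an LXR target that degrades lipoprotein receptors, fell (-0.63 ± 0.14, adjusted p = 0.00235, on chromosome 13 with its median of -0.42), while Stard3, an endosomal sterol transfer protein (0.74 ± 0.096, adjusted p = 4.87e-05), and Tmem97 (0.49 ± 0.058, adjusted p = 2.85e-05) rose.

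Of 19 other genes of fatty acid synthesis, elongation and activation, 12 rose and 3 fell, with a median log2 fold change of 0.25. Acacb, the mitochondrial counterpart of Acaca, rose from 1.85 to 2.30 CPM in scramble to 4.51 to 4.89 CPM in shMCT-1 (1.24 ± 0.14, adjusted p = 2.22e-05), which is opposite to Acaca and at a far lower level. Tecr, the last enzyme of the elongation cycle, rose (0.76 ± 0.053, adjusted p = 6.08e-07). Mlxip, a glucose-sensing transcription factor (-0.66 ± 0.071, adjusted p = 1.32e-05), and Acsl1, which activates long-chain fatty acids (-0.60 ± 0.065, adjusted p = 1.33e-05), fell. The shares called in these 3 lists were 75.0%, 81.8% and 78.9%, beside 69.0% of all tested genes.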

How the data were processed

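The authors removed adapters and reads under 20 bases with cutadapt 1.18, aligned the reads to mm10 with STAR 2.7.0d (GENCODE M19) and quantified genes with RSEM. The values they deposited are expected counts per gene, not normalized for library size or length. Tools are as in the submitters' processing notes and the study's methods. Of the values above 0, 29.6% were not whole, and all were rounded. Series text calls the replicates independent. The 12704 of 54532 genes that exceeded 1 CPM in 2 libraries or more were TMM-normalized and tested with the quasi-likelihood test of edgeR 4.0.16 (R 4.3.3) in 1 fit of the 4 groups, and in an additive model for effects over both treatments or backgrounds. p-values are two-sided and adjusted by the Benjamini-Hochberg method over all tested genes, with a call at an adjusted p-value under 0.05. Standard errors are the log2 fold change divided by the root of F. Counts of calls and medians of lists are descriptions, without a test. The test was checked on simulated counts in which few genes changed. In shMCT-1 vs. scramble most tested genes were called, a setting that this check does not cover.

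CPM values divide the expected counts by the library total, and lengths are exon unions of GENCODE M21 (GRCm38), which also gave coordinates. Promoter windows came from RefSeq. Each library has between 19839299 and 33063570 counts; counting error is the only error this depth describes. The members and the lists of other genes were chosen with earlier results of these data known. Values in every library were to be given for members called with an absolute log2 fold change of at least 0.58 in the same direction within both treatments, for Srebf1, Srebf2, Insig1 and Scap, and for the pairs Scd1 and Scd2, and Fads1 and Fads2. In each other list, the 2 called genes with the highest and the 2 with the lowest log2 fold change were named, except 1 gene that is not reported here. Alternatives were DESeq2 1.42.0, RLE size factors, other filters (none, filterByExpr, or over 1 CPM in 7 libraries or more), the replicate number as a block, the exact test of edgeR restricted to the 4 libraries of a comparison, leaving out each library and subtracting the median of the chromosome.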

Additional observations from a re-analysis of the deposited data

How the results depend on the processing

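In shMCT-1 vs. scramble over both treatments 24 to 25 of the 32 genes were called under every alternative run (25 with DESeq2, RLE size factors, filterByExpr and the filter on 7 libraries, 24 without a filter), and 23 to 25 when 1 library was left out. Within IgG the count was 16 to 21 under the other alternatives and 10 to 22 with a library left out, lowest without shMCT-1 + IgG replicate 1. Within anti-IL-6R it was 15 to 18 and 7 to 21, and it was 8 and 7 without scramble + anti-IL-6R replicates 1 and 2. Leaving out a library leaves a lone sample in 1 group, which is assumed to vary like the others. Over both treatments, 23 of the 25 calls held in each of these 8 fits, and those of Mvk and Acss2 held in 4 and 5. The cause of the changes was not tested. After subtracting the median of its chromosome, a value with no test, Hmgcs1 turned from lower to higher (0.0070 within IgG, 0.101 within anti-IL-6R, 0.0637 over both), as did Idi1 (0.0588 within anti-IL-6R, 0.0225 over both) and Acss2 (0.112 and 0.189).

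The replicate numbers did not pair the samples, since the differences between replicates 2 and 1 correlated by -0.0797 to 0.106 between groups. With the replicate number as a block, 21, 18 and 25 of the 32 genes were called within IgG, within anti-IL-6R and over both treatments, and 7035, 7017 and 8790 of all genes. For anti-IL-6R vs. IgG no alternative called any of the 32 genes, while over all genes 64, 133 and 73 were called without a filter in scramble, in shMCT-1 and over both backgrounds, and 97 for the interaction. DESeq2 called 0, 11, 1 and 6, the exact test 10 and 14 where it was run. Each of the 32 genes had at least 432 counts in every library, and how far depth or the number of libraries limits the precision was not tested.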

Other observations

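Pathways that branch from or oppose those of the report were also measured in shMCT-1 vs. scramble over both treatments. Of 11 genes of the isoprenoid branch, which uses farnesyl diphosphate for protein prenylation, ubiquinone and dolichol, 5 rose and 4 fell. Of these 11 genes 81.8% were called, beside 69.0% of all tested genes. Coq2 (0.51 ± 0.11, adjusted p = 0.00159), which attaches the side chain of ubiquinone, and Rabggtb (0.49 ± 0.069, adjusted p = 9.17e-05), a subunit of the transferase that prenylates Rab proteins, were higher. Pggt1b, a subunit of a protein prenyltransferase (-0.90 ± 0.14, adjusted p = 0.000163), and Pdss1, which builds the ubiquinone side chain (-0.57 ± 0.07, adjusted p = 3.56e-05, on chromosome 2 with a median of -0.37), were lower. Of 13 tested genes of fatty acid oxidation, out of 14 listed, 7 rose and 2 fell, with a median of 0.35. The share called, 69.2%, was near the 69.0% of all tested genes. Acaa2 (0.91 ± 0.09, adjusted p = 7.3e-06) and Acadl (0.69 ± 0.052, adjusted p = 1.14e-06), both enzymes of mitochondrial beta-oxidation, rose. Hadha (-0.30 ± 0.053, adjusted p = 0.000414) and Cpt2 (-0.21 ± 0.071, adjusted p = 0.0228) fell, and the call of Cpt2 held in 4 of 8 fits that each left out 1 library.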
